A study of Homo sapiens with 30 samples.

Results

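The HOX genes are the homeobox genes whose symbols join a cluster letter, A to D, with a paralogue number, and all 39 of the 39 genes with such a symbol were found among the 26255 genes of the RNA-seq table. They were chosen by name and not by their values. They lie in 4 clusters, which were bounded here by the outermost HOX loci of the table on the hg19 assembly. The HOXA cluster holds 11 genes within chr7:27132614-27239725, the HOXB cluster 10 genes within chr17:46606807-46806111, the HOXC cluster 9 genes within chr12:54329112-54449814, and the HOXD cluster 9 genes within chr2:176957532-177055635.

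HOX proteins are DNA-binding transcription factors that give cells their position along the head-to-tail axis of the embryo. Within a cluster the genes are read in the order in which they lie, so that low paralogue numbers are used toward the head and high numbers toward the tail, and the prostate, which forms near the tail end, uses the high numbers. HOX clusters are also the classic targets of Polycomb repressive complex 2 (PRC2), which places 3 methyl groups on lysine 27 of histone H3 (H3K27me3) over silent genes, while Trithorax proteins oppose it.

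All but 1 of the lists come from RWPE1, an immortalized prostate epithelial line of normal origin, infected with retroviruses and kept under drug selection. RWPE1-Vector cells carried the empty vectors, RWPE1-ERG cells expressed isoform 1 of ERG, an ETS-family transcription factor that gene fusions switch on in prostate tumors, RWPE1-mAKT cells expressed myristoylated AKT, an always-active kinase, and RWPE1-ERG+mAKT cells expressed both. RWPE1-ERG S96E cells expressed ERG with glutamate in place of the serine that ERK phosphorylates, and are used here for H3K27me3 alone. VCaP, a prostate cancer line, was given the vehicle DMSO on days 1, 3 and 6. The RNA-seq and ATAC-seq lines were infected with both pQCXIH and pBabe-puro constructs, while the lines used for H3K27me3 carried a pQCXIH construct alone, so the same line name does not stand for the same culture in each assay. RNA-seq had 3 libraries in each of 4 lines, but the table gives 1 pooled FPKM per line (a level of RNA scaled for the length of the transcript and the depth of the library). Each ChIP-seq and ATAC-seq list comes from 1 library. No value below therefore has a replicate error, and no test between lines was run. Values of RNA are given in the order Vector, ERG, mAKT and ERG+mAKT throughout.

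The transgenes were present as labelled. ERG was at 0.264, 358, 0.435 and 328 FPKM, and AKT1, which the table does not split into native and introduced copies, was at 58.7, 64.2, 156 and 281 FPKM. The cells expressed the basal epithelial keratins KRT5, at 1170 to 3642 FPKM, and KRT14, at 700 to 2936 FPKM, together with the luminal keratins KRT8 and KRT18, while the luminal secretory gene KLK3 was listed at 0. Of 7 fibroblast markers COL1A1 was the 1 above 1 FPKM, the 5 endothelial markers summed to at most 0.32 FPKM, and 2 of 4 leukocyte markers reached 1 FPKM, CD68 at 24.3 to 28.9 FPKM and CD14 at up to 1.09 FPKM, while the defining marker PTPRC did not exceed 0.00391 FPKM. The keratins differed between lines. KRT15, a further basal keratin, was at 33.3, 80.3, 53.8 and 280 FPKM, highest in RWPE1-ERG+mAKT, while KRT5 and KRT14 were lowest in RWPE1-ERG. The 6 basal markers summed to 6635, 2325, 6716 and 5275 FPKM and the 7 luminal markers to 1444, 3618, 1662 and 1883 FPKM, and their part in the HOX values below was not tested.

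The RWPE1 lines used a broad set of HOX genes, with most of the summed RNA from high paralogue numbers. In all, 24 of 39 HOX genes reached 1 FPKM in at least 1 line and 21 did so in all 4. Expressed as a share, 61.5% of HOX genes and 48.3% of all genes of the table reached that level in any line. By count, 11 of 16 genes of groups 9 to 13 did so, 10 of 15 of groups 4 to 8 and 3 of 8 of groups 1 to 3. The HOX values summed to 125, 132, 135 and 126 FPKM. Genes of paralogue groups 9 to 13 supplied 65.3, 60.9, 66.5 and 65.4% of these sums, those of groups 4 to 8 28.8, 31.7, 27.6 and 29.1%, and those of groups 1 to 3 the remainder. The 5 highest genes in every line were HOXA9, HOXA10, HOXB7, HOXD10 and HOXD11, which together made up 56.1, 53.2, 55.5 and 57.4% of the sums. The HOXA cluster gave 46.8 to 49.2% of each sum, the HOXD cluster 29.2 to 33.7%, the HOXB cluster 9.72 to 14.2% and the HOXC cluster 7.33 to 9.85%.

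**Figure D1:**
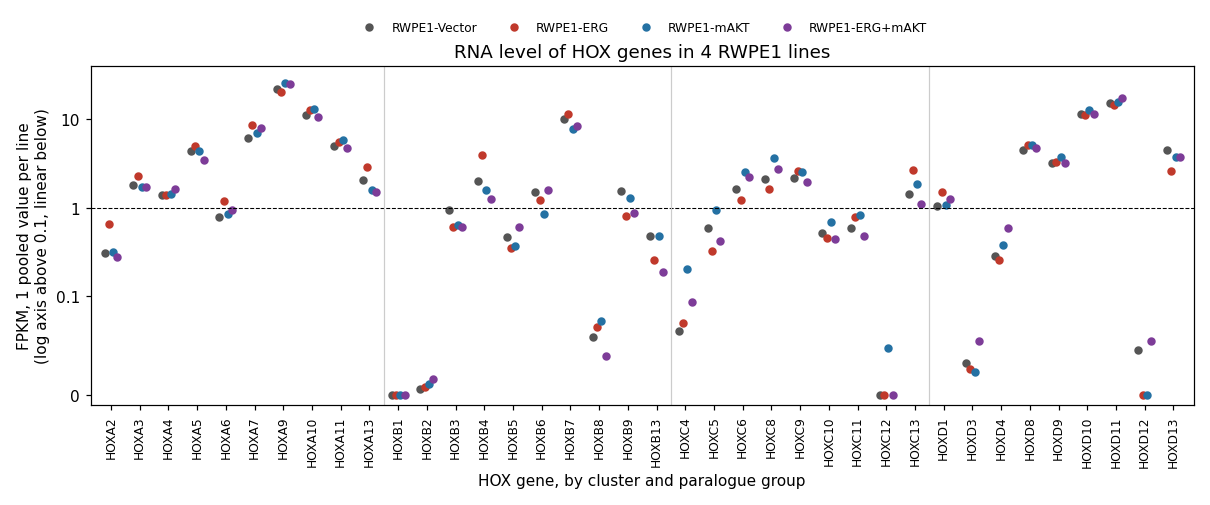
RNA level of HOX genes (FPKM, 1 pooled value per line, vertical axis logarithmic above 0.1 and linear below) by cluster and paralogue group (horizontal axis), with 1 point per line and a dashed line at 1 FPKM. HOXA9, at 20.1 to 25.8 FPKM, is the highest gene, and the points of the 4 lines lie close together for HOXD8 to HOXD11 and apart for HOXB4 and HOXC13.

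The highest HOX gene was HOXA9, a factor best known from blood progenitors and leukemia, at 22.1, 20.1, 25.8 and 24.6 FPKM. HOXD11, which shapes the forearm and kidney, stood next at 15.2, 14.6, 15.7 and 17.4 FPKM. Both exceeded every other HOX gene in each line. The DNA around their starts is shown beside that of HOXD12 and HOXD13, the neighbours of HOXD11. These 4 genes do not cover every state of a gene start described below. Each sequence runs from 250 bases before to 50 bases after the start, is taken from RefSeq on GRCh38.p14, and was found letter for letter in hg19, at chr7:27205107-27205406 for HOXA9 (minus strand), chr2:176971758-176972057 for HOXD11, chr2:176964273-176964572 for HOXD12 and chr2:176957199-176957498 for HOXD13 (plus strand). Capitals mark CG dinucleotides, the sites of DNA methylation, whose clustering is a trait of Polycomb targets.
HOXA9: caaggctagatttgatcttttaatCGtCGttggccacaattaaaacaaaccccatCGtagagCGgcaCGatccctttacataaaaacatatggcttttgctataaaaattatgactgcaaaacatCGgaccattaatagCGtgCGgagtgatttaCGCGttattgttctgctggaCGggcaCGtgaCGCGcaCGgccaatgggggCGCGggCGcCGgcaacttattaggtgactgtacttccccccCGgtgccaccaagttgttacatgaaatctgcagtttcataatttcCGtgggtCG
HOXD11: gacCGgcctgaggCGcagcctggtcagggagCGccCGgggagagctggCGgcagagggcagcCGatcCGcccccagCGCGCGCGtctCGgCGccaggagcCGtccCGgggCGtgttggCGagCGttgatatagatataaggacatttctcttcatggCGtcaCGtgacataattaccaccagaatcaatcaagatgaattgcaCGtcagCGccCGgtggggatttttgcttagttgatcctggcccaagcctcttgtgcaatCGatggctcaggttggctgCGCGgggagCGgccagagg
HOXD12: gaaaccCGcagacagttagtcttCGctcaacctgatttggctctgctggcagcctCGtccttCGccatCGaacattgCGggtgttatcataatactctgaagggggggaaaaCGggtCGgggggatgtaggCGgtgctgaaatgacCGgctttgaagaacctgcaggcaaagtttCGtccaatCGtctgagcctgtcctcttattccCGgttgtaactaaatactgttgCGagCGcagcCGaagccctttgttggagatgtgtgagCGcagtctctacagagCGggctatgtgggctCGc
HOXD13: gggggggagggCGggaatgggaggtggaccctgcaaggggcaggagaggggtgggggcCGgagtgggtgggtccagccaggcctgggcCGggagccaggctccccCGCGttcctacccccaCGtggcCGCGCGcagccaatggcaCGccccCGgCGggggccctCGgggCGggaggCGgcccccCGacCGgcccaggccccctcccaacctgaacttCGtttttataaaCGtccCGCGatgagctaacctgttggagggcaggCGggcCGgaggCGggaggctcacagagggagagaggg
These windows held 22, 27, 19 and 24 CG dinucleotides. RefSeq entries placed within 1 kb of the start used here existed for 18 HOX genes, of which 17 held at least 10 CG dinucleotides, against 56.4% of all 35116 promoters. The 13 of them with a gene level of at least 1 FPKM in any line held a median of 27 CG dinucleotides (range 13 to 44), and the other 5 a median of 11 (4 to 25). All of these 18 genes but HOXB1 lie in HOXA or HOXD, so the HOXB and HOXC clusters are hardly covered by these counts.

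Along the HOXA cluster, 10 of 11 genes reached 1 FPKM in some line. HOXA3, needed for the thymus and parathyroid, was at 1.81, 2.27, 1.7 and 1.7 FPKM. HOXA4 lay at 1.4, 1.4, 1.42 and 1.62 FPKM, so its highest line exceeded its lowest by 1.16-fold. HOXA5, a lung morphogenesis gene, was at 4.41, 5.01, 4.38 and 3.42 FPKM, HOXA6 crossed 1 FPKM in RWPE1-ERG alone with 0.797, 1.19, 0.858 and 0.95, and HOXA7 was at 6.17, 8.55, 7.06 and 7.89 FPKM. For HOXA3, HOXA5, HOXA6 and HOXA7 the highest of the 4 lines was RWPE1-ERG. The genes toward the far end direct reproductive tract and limb form. HOXA10 was at 11.2, 12.7, 13.1 and 10.6 FPKM and HOXA11 at 4.95, 5.47, 5.83 and 4.76 FPKM. HOXA13, a gene of the distal limb and urogenital tract, was at 2.08, 2.86, 1.57 and 1.49 FPKM, a 1.92-fold span that was the widest among the HOXA genes above 1 FPKM. HOXA2 remained at 0.281 to 0.652 FPKM. The table also has a row for HOXA10-HOXA9, a transcript that reads through both genes, at 0 to 0.158 FPKM, so little signal was assigned to it.

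The HOXB cluster was used unevenly, with 4 of 10 genes above 1 FPKM. HOXB7, which is raised in several carcinomas, was at 10.1, 11.5, 7.82 and 8.42 FPKM. HOXB4, known for expanding blood stem cells, was at 2.01, 3.94, 1.59 and 1.27 FPKM and had the widest span of all HOX genes above 1 FPKM, 3.1-fold between RWPE1-ERG and RWPE1-ERG+mAKT. HOXB6 was at 1.5, 1.22, 0.848 and 1.57 FPKM. HOXB9 was at 1.54, 0.812, 1.3 and 0.877 FPKM, lower in both lines with ERG than in both lines without it. HOXB13, a factor of the prostate lineage, was at 0.479, 0.261, 0.485 and 0.19 FPKM, likewise lower in both lines with ERG and below 1 FPKM in each. HOXB3 and HOXB5 lay between 0.348 and 0.933 FPKM, HOXB2 and HOXB8 below 0.1 FPKM in every line, and HOXB1 was listed at 0 in all 4.

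The HOXC cluster was the lowest by sum in each line but RWPE1-mAKT, where it stood at 13.3 FPKM and HOXB at 13.1 FPKM, and 4 of its 9 genes reached 1 FPKM. HOXC6, whose RNA is used as a urine marker of prostate cancer, was at 1.63, 1.22, 2.55 and 2.23 FPKM. HOXC8 was at 2.14, 1.64, 3.66 and 2.71 FPKM. Both were higher in the 2 lines with mAKT than in the 2 without it, and lowest in RWPE1-ERG. HOXC9 was at 2.18, 2.6, 2.54 and 1.98 FPKM, and HOXC13, a regulator of hair keratins, at 1.43, 2.65, 1.84 and 1.11 FPKM. HOXC5, HOXC10 and HOXC11 lay between 0.322 and 0.934 FPKM, HOXC4 did not exceed 0.205 FPKM, and HOXC12 was listed at 0 in all lines but RWPE1-mAKT, where it was at 0.0473 FPKM.

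The HOXD cluster was the steadiest across lines. HOXD8 was at 4.47, 5.05, 5.07 and 4.75 FPKM. HOXD9, which acts in the lumbar spinal cord and hindlimb, was at 3.22, 3.32, 3.72 and 3.21 FPKM, and HOXD10 at 11.4, 11.2, 12.6 and 11.3 FPKM. From the lowest to the highest line these 3 genes and HOXD11 spanned 1.12-fold to 1.19-fold. HOXD13, mutated in fused and extra digits, was at 4.48, 2.57, 3.79 and 3.76 FPKM, lowest in RWPE1-ERG. HOXD1 was at 1.05, 1.52, 1.09 and 1.26 FPKM. HOXD4 was at 0.259 to 0.594 FPKM, and HOXD3 and HOXD12, each with expressed genes on a side of it, did not exceed 0.0552 FPKM. Silent genes thus lay between expressed ones: HOXD12 next to HOXD11 and HOXD13, and HOXB8 next to HOXB7 and HOXB9. HOXB9, however, was below 1 FPKM in RWPE1-ERG (0.812) and RWPE1-ERG+mAKT (0.877).

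Few HOX genes differed by 2-fold between lines. A gene was counted as different where its higher line had at least 1 FPKM and at least 2-fold the FPKM of the other. Between RWPE1-ERG and RWPE1-Vector, the comparison that asks what ERG does alone, 0 of 24 HOX genes passed in either direction, against 7.16% of all genes (5.16% higher and 2% lower). The counts were 0 of 23 for RWPE1-mAKT over RWPE1-Vector (2.94% of all genes, 1.6% higher and 1.35% lower), 0 of 23 for RWPE1-ERG+mAKT over RWPE1-Vector (6.11%, 4.11% higher and 1.99% lower) and 0 of 23 for RWPE1-ERG+mAKT over RWPE1-mAKT (4.46%, 3.08% higher and 1.38% lower). These comparisons share lines, so their counts are not separate pieces of evidence. From ERG alone to ERG with mAKT, 2 of 23 were lower, HOXB4 with a ratio of 0.323 and HOXC13 with a log2 ratio of -1.25, and 0 were higher, against 3.83% of all genes lower and 3.16% higher (6.99% in all). For RWPE1-mAKT over RWPE1-ERG, 2 of 24 HOX genes were higher, HOXC6 (log2 ratio 1.07) and HOXC8 (1.16), against 2.5% of all genes, and HOXB4 was lower (-1.31), against 5.14% (7.64% in either direction). The counts of 0, 1 or 2 genes are too small to set their shares apart from those backgrounds.

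At a limit of 1.5-fold, more HOX genes differed. With ERG alone HOXB4 and HOXC13 were higher and HOXB9 and HOXD13 lower than in RWPE1-Vector, 2 genes in each direction, against 9.62% of all genes higher and 5.15% lower (14.8% in all). With mAKT alone HOXC6 and HOXC8 were higher and HOXB6 lower, against 3.2 and 3% (6.2%). With both, 0 were higher, and HOXB4 and HOXB9 were lower, against 7.38 and 5.34% (12.7%). From RWPE1-ERG to RWPE1-ERG+mAKT, HOXC6 and HOXC8 were higher and 4 genes, HOXA13, HOXB4 and HOXC13 among them, lower, against 6.17 and 9.56% (15.7%). From RWPE1-mAKT to RWPE1-ERG+mAKT, HOXB6 was higher and HOXC13 lower, against 6.15 and 3.7% (9.85%). Set against RWPE1-ERG, RWPE1-mAKT had HOXB9, HOXC6 and HOXC8 higher and HOXA13 and HOXB4 lower, against 5.53 and 9.59% (15.1%).

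The median HOX log2 ratio was 0.18 for RWPE1-ERG over RWPE1-Vector, with 16 genes above and 8 below 0, against a median of -0.01 for all genes. It was 0.13 for RWPE1-mAKT over RWPE1-Vector (all genes 0.02), -0.06 for RWPE1-ERG+mAKT over RWPE1-Vector (-0.07), -0.20 for RWPE1-ERG+mAKT over RWPE1-ERG (-0.05) and -0.16 for RWPE1-ERG+mAKT over RWPE1-mAKT (-0.08). The extremes for ERG alone were HOXB4 at 1.96-fold higher and HOXB9 at a ratio of 0.528. Regardless of sign, the median log2 difference of HOX genes in that comparison was 0.31, against 0.22 for all genes. It was 0.23 against 0.12 for RWPE1-mAKT and 0.21 against 0.18 for RWPE1-ERG+mAKT, each over RWPE1-Vector. For RWPE1-ERG+mAKT it was 0.36 against 0.23 over RWPE1-ERG and 0.21 against 0.17 over RWPE1-mAKT. For RWPE1-mAKT over RWPE1-ERG it was 0.39 against 0.21. HOX genes were also less abundant, with a median level of 3.09 FPKM in RWPE1-ERG against 10.4 FPKM for all genes that reached 1 FPKM in any line. Over the 4 lines, 4 of 24 HOX genes spanned at least 2-fold, namely HOXB4, HOXC6, HOXC8 and HOXC13, against 13.2% of all genes. The ranking of the 39 genes by level was nearly the same in every pair of lines, with a Spearman rho of 0.95 to 0.98. Over the 24 HOX genes that reached 1 FPKM it was 0.85 to 0.95, lowest between RWPE1-ERG and RWPE1-ERG+mAKT, against 0.96 to 0.98 over all genes at that level. For these correlations the genes are not independent, since they share libraries and, in part, loci.

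**Figure D2:**
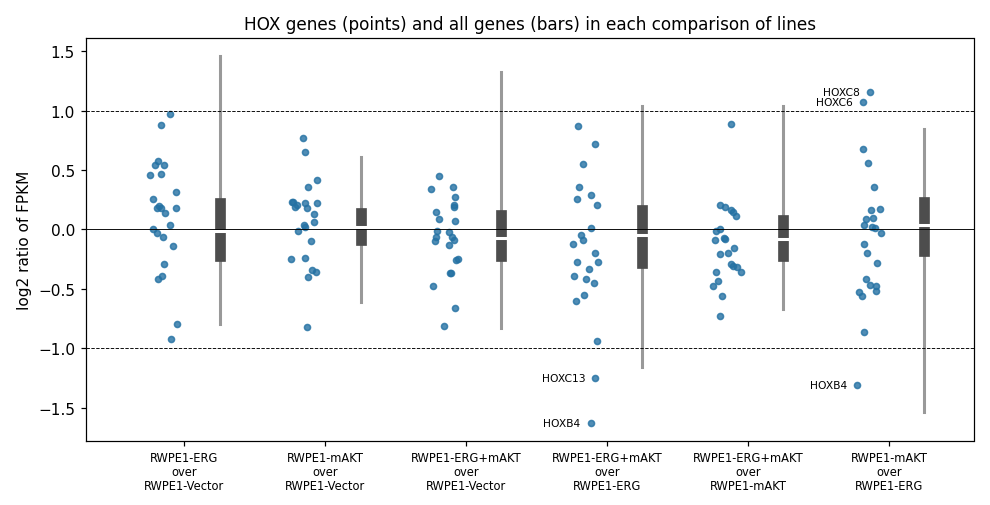
Log2 ratio of FPKM (vertical axis) in 6 comparisons of lines (horizontal axis). Points are HOX genes with at least 1 FPKM in either line, thick bars the middle 50% and thin bars the middle 95% of all genes chosen the same way with FPKM above 0, white ticks their medians, and dashed lines 2-fold. The HOX points past 2-fold are HOXB4 and HOXC13 for RWPE1-ERG+mAKT over RWPE1-ERG, and HOXC6, HOXC8 and HOXB4 for RWPE1-mAKT over RWPE1-ERG.

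Genes that work with HOX proteins or regulate the clusters were read by the same rule. TALE cofactors bind DNA together with HOX proteins, and 9 of 10 reached 1 FPKM in some line, led by TGIF1 at 25.5 to 26.6 FPKM and PBX2 at 15.8 to 20 FPKM. None passed 2-fold for ERG alone or mAKT alone over RWPE1-Vector, against 7.16 and 2.94% of all genes. MEIS2, at 1.05, 0.619, 1.47 and 0.609 FPKM, was lower in RWPE1-ERG+mAKT than in RWPE1-mAKT, against 1.38% of all genes. It was also among 2 of 9 cofactors that were higher in RWPE1-mAKT than in RWPE1-ERG, against 2.5% of all genes. Of the upstream regulators, the CDX factors did not exceed 0.126 FPKM, and the highest were the retinoic acid receptors RARG, at 27.9 to 34.5 FPKM, and RARA, at 10.1 to 11.4 FPKM. CYP26B1, which degrades retinoic acid, was at 2.67, 0.873, 2.65 and 1.13 FPKM, lower by more than 2-fold in each line with ERG than in its partner without. That was 1 of 3 upstream factors tested for RWPE1-ERG over RWPE1-Vector, against 2% of all genes lower. For RWPE1-ERG+mAKT over RWPE1-mAKT it was 1 of 4, against 1.38%. In the same comparisons 0 and 1 of them were higher, against 5.16 and 3.08% of all genes.

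None of the listed chromatin regulators passed 2-fold. All 11 Trithorax-side genes (the highest DPY30 at 58.8 to 68.2 FPKM and WDR5 at 55.8 to 58.2 FPKM), all 13 PRC1 genes (the highest PHC2 at 31.1 to 47.5 FPKM and RING1 at 32.8 to 39.3 FPKM) and all 7 PRC2 genes were expressed, and 0 of them passed 2-fold in any of the 6 comparisons. Of all genes 2.94 to 7.64% passed in either direction, and in lists this short 0 cannot be set apart from those shares. EZH2, the PRC2 methyltransferase, was at 13.7, 10.4, 12.1 and 11.9 FPKM, and the histone-binding subunit RBBP7, at 83.3 to 97.3 FPKM, and EED, at 23.9 to 29.1 FPKM, were the highest of PRC2. Of 16 long noncoding RNAs of the clusters in the table, 7 reached 1 FPKM in some line. HOTAIRM1, in the HOXA cluster, was at 10.6, 15.6, 10.9 and 8.71 FPKM, and HAGLROS in the HOXD cluster was at 4.8, 7.06, 5.6 and 6.93 FPKM. HOTAIR, of the HOXC cluster, did not exceed 0.166 FPKM. Whether the libraries kept strand is not stated, so RNA of a HOX gene and of an antisense neighbour cannot be told apart. Of 16 genes flanking the clusters in the table, 10 reached 1 FPKM, ATP5G2 (299 to 387 FPKM) and ATP5G1 (203 to 252 FPKM) being highest. None of them passed 2-fold in any comparison, against the same 2.94 to 7.64% of all genes.

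H3K27me3 separated the clusters. In RWPE1-Vector, then RWPE1-ERG, then the S96E line, regions called for H3K27me3 covered 0.842, 0.471 and 4.51% of the HOXA cluster, 36.8, 32.5 and 47.1% of HOXB, 23.8, 24.1 and 60.7% of HOXC and 10.4, 10.3 and 19.4% of HOXD. Over the whole genome the same lists covered 7.81, 4.47 and 7.24%. HOXB, HOXC and HOXD thus lay above the genome share in every list and HOXA, within the bounds used here, below it. With 20 kb added to either side, HOXA in the S96E line was at 8.21%, above the genome share of that list. The covered lengths were 73.4, 64.7 and 93.8 kb in HOXB, 28.7, 29.1 and 73.3 kb in HOXC, 10.2, 10.1 and 19 kb in HOXD and at most 4.83 kb in HOXA. Fold enrichment over input, averaged over covered bases, was 2.06, 2.55 and 4.95 in HOXB, 1.92, 2.54 and 4.05 in HOXC and 2.02, 2.5 and 5.1 in HOXD, against 1.9, 2.09 and 2.49 in the whole lists. In HOXA it was 1.81, 2.03 and 2.11.

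**Figure D3:**
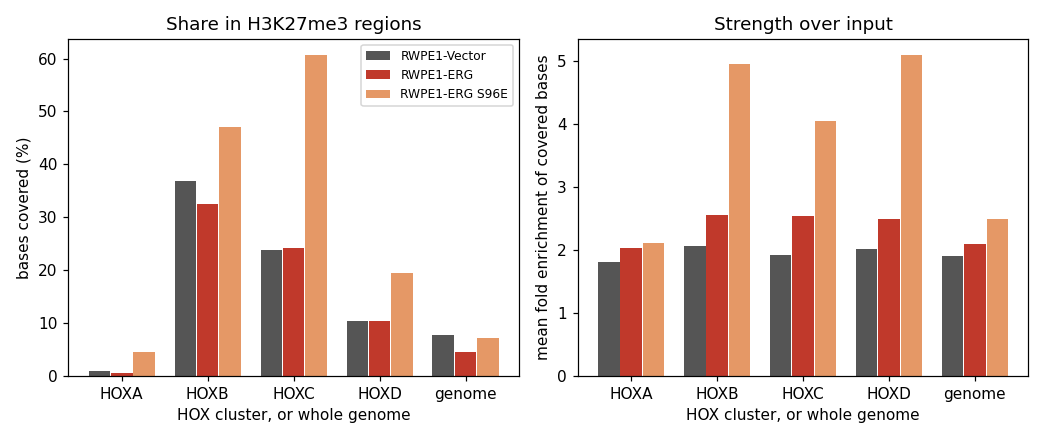
Share of bases within H3K27me3 regions (left panel, %) and mean fold enrichment over input of the covered bases (right panel) in each HOX cluster and the whole genome, with 1 bar per list and 1 library behind each bar. HOXC in RWPE1-ERG S96E has the highest share, 60.7%, and the HOXA share stays below the genome share in all 3 lists.

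The RWPE1-ERG S96E list stood apart from the others in its technical values as well. It was called from 26.5 M ChIP reads of 74 bases, against 19.4 M for RWPE1-Vector and 16.5 M for RWPE1-ERG, both of 84 bases, and 3413 of its 252784 regions had a q-value of 0.01 or below, against 29 of 492265 and 39 of 228233. The part of read number in the broader and stronger HOX regions was not tested. When each list was cut to its 228233 regions with the smallest p-values, the shares for RWPE1-ERG S96E moved little, HOXC being at 60.4%, while those for RWPE1-Vector fell to 28.2% in HOXB, 13.2% in HOXC and 5.33% in HOXD, each below the share in RWPE1-ERG, whose list was kept whole. This cut makes the numbers of regions equal but not those of reads. It also removes far fewer regions from the RWPE1-ERG S96E list than from the RWPE1-Vector list.

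The S96E regions in the HOX clusters were among the widest and strongest of their list. A region of 40.1 kb at chr17:46792918-46833019 held the HOXB13 start, with a fold enrichment of 6.51, and ranked 22 by width. The start sites of HOXB8 and HOXB9 lay in a region of 38.7 kb at chr17:46688811-46727541, with a fold enrichment of 6.82, which ranked 24. In HOXC, 25.5 kb at chr12:54342429-54367930 held the starts of HOXC11 and HOXC12 (fold enrichment 5.05, rank 93). In HOXD, 23.6 kb at chr2:176939067-176962654 held the HOXD13 start (5.65, rank 114), and 11.3 kb at chr2:177021011-177032295 the HOXD3 start (5.55, rank 898). The same places carried narrower and weaker regions in the other lists. The widest HOX region was 5.48 kb in RWPE1-Vector, in the gap between HOXB9 and HOXB13, and 15.3 kb in RWPE1-ERG, at the HOXC13 end of HOXC. Of the bases of HOX regions, 76.7% in RWPE1-ERG S96E and 24.6% in RWPE1-ERG lay in regions of at least 3-fold enrichment, against 13.8 and 2.8% in the whole lists, and 0 HOX regions of RWPE1-Vector reached 3-fold.

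**Figure D4:**
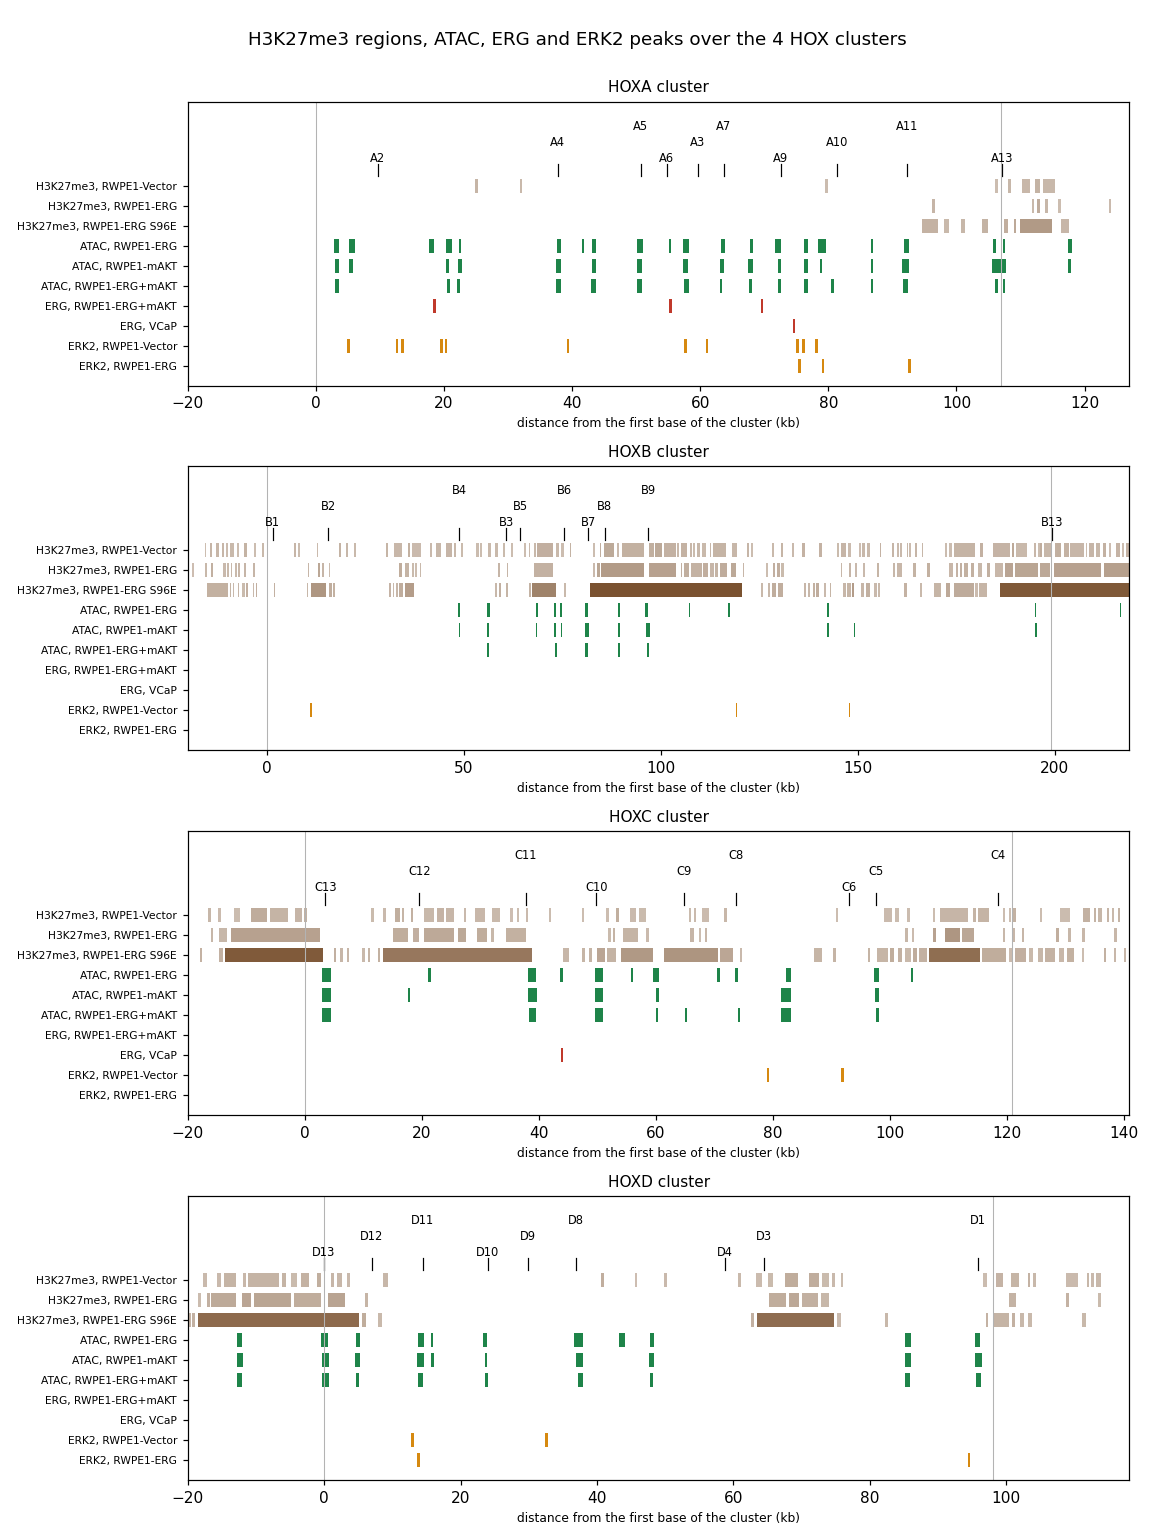
Maps of the 4 HOX clusters, with distance from the first base of the cluster in kb (horizontal axis) and 1 row per list; ticks at the top mark starts of HOX genes (A9 for HOXA9), grey lines the cluster ends, and darker brown a higher fold enrichment of H3K27me3. Features narrower than 0.4 kb are drawn 0.4 kb wide; the S96E row shows the 40.1 and 38.7 kb regions of HOXB and the HOXA rows are nearly free of H3K27me3 up to HOXA11.

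Locus by locus, the 39 genes fall on 31 loci in the table, because overlapping genes share one. H3K27me3 regions covered at least 50% of 4 loci in RWPE1-Vector (2.72% of all loci), 5 in RWPE1-ERG (2.92%) and 9 in RWPE1-ERG S96E (8.31%). HOXB9 was covered for 76.1, 80.2 and 100%, HOXB13 for 59.2, 76 and 100%, and HOXC12 for 53.9, 50.2 and 100%. These 3 loci passed in every list. HOXD13 was covered for 30.1, 79.2 and 100%, and HOXB8 for 28.2, 69.6 and 100%. HOXB4 went the other way, with 58.1% in RWPE1-Vector and 0% in RWPE1-ERG and RWPE1-ERG S96E. The regions at HOXB4 in RWPE1-Vector had a fold enrichment of at most 2.04. HOXC9, HOXC10, HOXC11 and the joint HOXC4, HOXC5 and HOXC6 locus passed 50% in RWPE1-ERG S96E alone, with 100, 64, 83.9 and 54.2%. HOXB7 and the loci of HOXD4, HOXD8, HOXD9, HOXD10 and HOXD11 had 0% in all 3 lists, as did HOXA2, HOXA11 and the joint HOXA5, HOXA6 and HOXA7 locus.

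Covered loci tended to have less RNA. Across the 39 genes, the Spearman rho between FPKM and the covered share of the locus was -0.39 in RWPE1-Vector and -0.50 in RWPE1-ERG. Genes of a joint locus share 1 covered share, and neighbours share regions, so the genes are not independent points.

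ATAC-seq, which marks open chromatin by where a transposase can cut, found 53 peaks within the clusters in RWPE1-ERG, 43 in RWPE1-mAKT (labelled RWPE1+mAKT for this assay) and 36 in RWPE1-ERG+mAKT, where the whole lists hold 63354, 57999 and 42081 peaks. By cluster the counts were 19, 16 and 15 in HOXA, 12, 11 and 5 in HOXB, 12, 7 and 8 in HOXC, and 10, 9 and 8 in HOXD. In all 4 clusters together this came to 101, 81.9 and 68.5 peaks per Mb, against 20.5, 18.7 and 13.6 per Mb of genome. Joined where they overlapped, the peaks formed 57 sites, of which 33 were open in all 3 lists, 9 in 2 lists and 15 in 1. HOXA had 14 of 20 sites open in all lists and HOXD 8 of 10, while HOXB had 5 of 13 and HOXC 6 of 14. Of the 9 sites in 2 lists, 8 were missing from RWPE1-ERG+mAKT, the shortest list, and 5 of those 8 lay in HOXB. Of the RWPE1-ERG peaks in the clusters, 64.2% overlapped a peak of RWPE1-ERG+mAKT, against 58.5% over the whole list, and 77.4% one of RWPE1-mAKT, against 72.7%. Of the RWPE1-mAKT peaks there, 95.3% overlapped RWPE1-ERG, against 79.3%, and 76.7% RWPE1-ERG+mAKT, against 64.5%. Of the RWPE1-ERG+mAKT peaks, 94.4% overlapped RWPE1-ERG, against 88.4%, and 91.7% RWPE1-mAKT, against 89.3%. Where the same number of peaks was taken from each list by p-value, 29, 23 and 36 HOX peaks were left, so that RWPE1-ERG+mAKT then had the most.

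Gene starts were then taken from the MANE Select transcripts, which give 1 start for each of the 39 genes and for 18878 genes in all. An ATAC peak lay within 1 kb of 22, 20 and 21 HOX starts in the ERG, mAKT and ERG+mAKT lines, which is 56.4, 51.3 and 53.8% against 67.8, 66.7 and 62.3% of all genes. An H3K27me3 region lay within 1 kb of 15, 12 and 20 starts in the Vector, ERG and S96E lists, or 38.5, 30.8 and 51.3% against 25.5, 18.2 and 25.9% of all genes. In HOXC the count was 4, 4 and 8 of 9 starts, and in HOXA 1, 0 and 1 of 11.

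The gene starts fell into recognizable states. At 9 of 39 starts, chromatin was open in all ATAC lists and free of H3K27me3 in all lists, among them HOXA4, HOXA5, HOXA7, HOXA9, HOXA11, HOXD8, HOXD10 and HOXD11, and all 9 genes had at least 1 FPKM in every line, with a median of 4.95 FPKM in RWPE1-Vector. Of all gene starts 51.1% were in this state, and 91.7% of those genes had at least 1 FPKM in every line. The opposite state, closed in all ATAC lists and marked in all H3K27me3 lists, was found at 6 starts, those of HOXB3, HOXB8, HOXB13, HOXC4, HOXC12 and HOXD3, and 0 of these genes reached 1 FPKM in any line. Of all starts 7.92% were in that state, and 4.01% of those genes reached 1 FPKM in any line. A further 5 HOX starts, against 10.3% of all, were closed and unmarked in every list, and of these HOXA3, HOXC6 and HOXD9 had at least 1 FPKM in every line while HOXA2 and HOXD4 did not reach it. HOXB9, HOXC11 and HOXD13 were both open and marked in every list (2.78% of all starts), at 1.54, 0.599 and 4.48 FPKM in RWPE1-Vector. At the HOXD13 start the fold enrichment of ATAC was 7.92 in RWPE1-ERG, 3.26 in RWPE1-mAKT and 3.95 in RWPE1-ERG+mAKT, and that of H3K27me3 was 2.37, 2.89 and 5.65. HOXD12, which lies between HOXD13 and HOXD11, had no ATAC peak at its start and H3K27me3 of 2.06-fold in RWPE1-ERG and 2.47-fold in RWPE1-ERG S96E. Its promoter, printed with those of its neighbours, holds 19 CG dinucleotides. The printed windows themselves overlapped an H3K27me3 region in 0 lists for HOXD12 and in 1 list for HOXD13.

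Among starts with a changing state, HOXB4 had an ATAC peak of 5.33-fold in RWPE1-ERG and 3.49-fold in RWPE1-mAKT and none in RWPE1-ERG+mAKT, the line with its lowest RNA, and HOXB6 had 6.32-fold and 2.99-fold and likewise none, although its RNA was highest in RWPE1-ERG+mAKT. HOXC8 had peaks in RWPE1-ERG and RWPE1-ERG+mAKT but not in RWPE1-mAKT, the line with its highest RNA. HOXA10, at 10.6 to 13.1 FPKM, had 1 weak peak of 2.2-fold at its MANE start, but the second HOXA10 start of RefSeq, at chr7:27219431-27219730, overlapped a peak in all 3 lists. Another RefSeq start of HOXA3, at chr7:27190520-27190819, also overlapped a peak in all 3, though others of this gene overlapped none. The RefSeq start given for HOXC4 and HOXC5, at chr12:54410422-54410721, overlapped a peak in 2 lists and no H3K27me3 region. A site open in all 3 ATAC lists, at chr12:54410514-54412193, overlapped the joint locus of HOXC4, HOXC5 and HOXC6, away from the HOXC6 MANE start. The closed states given above for HOXA3, HOXC4 and HOXC6 thus hold for their MANE starts. For HOXA3, HOXB3 and HOXD3 the MANE start lay 21803, 15793 and 6770 bases outside the locus of the table, so the state of the start and the FPKM may belong to different transcripts there.

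In RWPE1-ERG, the line with RNA, ATAC and H3K27me3 lists, 18 of the 23 HOX genes with at least 1 FPKM had an ATAC peak at the start (78.3%, against 94.5% of all genes at that level) and 2 had an H3K27me3 region (8.7% against 2.64%). Of the 16 HOX genes below 1 FPKM, 4 had an ATAC peak (25% against 31.6%) and 10 an H3K27me3 region (62.5% against 40.4%). The HOX genes followed the direction seen in all genes at both levels.

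**Figure D5:**
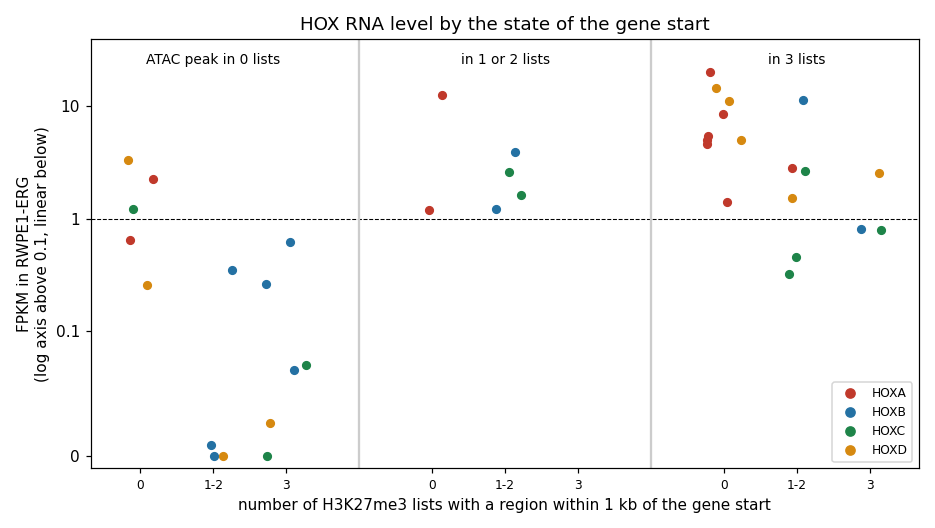
FPKM in RWPE1-ERG (vertical axis, logarithmic above 0.1 and linear below) of each HOX gene by how many of 3 H3K27me3 lists (horizontal axis) and 3 ATAC lists (panels) have a region within 1 kb of its start; colors are clusters. The 9 genes open in all ATAC lists without H3K27me3 lie above the dashed line at 1 FPKM, and the 6 closed and marked in all lists lie below it.

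Few ERG peaks lay in the clusters. Of 9113 ERG peaks in RWPE1-ERG+mAKT, 3 lay in the HOX clusters, all in HOXA, and of 6143 in VCaP, 2 did. That is 5.71 and 3.81 peaks per Mb of cluster, against 2.94 and 1.98 per Mb of genome, on counts of 3 and 2. Their sequences are shown, except for 1 peak in an untranslated exon, because they are the places where ERG was called on a HOX cluster. They are read from hg19 on the plus strand, and capitals mark GGAA and its reverse complement TTCC, the core that ETS factors bind.
RWPE1-ERG+mAKT, chr7:27150949-27151057: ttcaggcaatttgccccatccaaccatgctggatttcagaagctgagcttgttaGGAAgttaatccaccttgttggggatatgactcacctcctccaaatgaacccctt
RWPE1-ERG+mAKT, chr7:27187799-27188084: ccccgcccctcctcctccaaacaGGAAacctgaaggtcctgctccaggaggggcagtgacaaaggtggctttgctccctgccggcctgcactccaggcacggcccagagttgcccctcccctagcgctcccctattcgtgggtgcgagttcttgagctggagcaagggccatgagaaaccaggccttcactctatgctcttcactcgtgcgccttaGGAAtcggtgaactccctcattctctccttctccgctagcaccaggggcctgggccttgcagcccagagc
VCaP, chr7:27207039-27207257: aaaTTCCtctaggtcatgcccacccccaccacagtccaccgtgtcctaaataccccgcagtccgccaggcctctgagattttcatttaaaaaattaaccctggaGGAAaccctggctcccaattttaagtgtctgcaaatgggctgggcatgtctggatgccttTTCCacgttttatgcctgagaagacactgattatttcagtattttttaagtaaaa
VCaP, chr12:54372876-54373132: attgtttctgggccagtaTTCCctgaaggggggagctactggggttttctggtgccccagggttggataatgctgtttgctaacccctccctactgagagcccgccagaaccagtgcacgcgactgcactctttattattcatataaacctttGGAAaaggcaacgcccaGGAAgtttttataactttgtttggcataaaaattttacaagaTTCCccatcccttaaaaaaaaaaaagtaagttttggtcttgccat
The first lies in an intron of HOXA3 and of HOXA-AS2, 8667 bases from the nearest HOX start, that of HOXA2. The second lies in an intron of the long HOXA3 transcript, 619 bases from the HOXA6 start. The third RWPE1-ERG+mAKT peak, at chr7:27202088-27202196, lies in the 3′ untranslated part of HOXA9. The VCaP peaks lie in an intron of a longer HOXA9 transcript and between genes of HOXC, 5854 bases from the HOXC10 start. In the order given here the RWPE1-ERG+mAKT peaks had fold enrichments of 3.53, 3.52 and 4.24, and the VCaP peaks 3.59 and 3.48. None of the 5 had a q-value of 0.01 or below, and none overlapped an ERG peak of the other line. The first and second RWPE1-ERG+mAKT peaks and the VCaP peak in HOXC overlapped an ATAC peak of RWPE1-ERG, and 0 of the 5 overlapped H3K27me3.

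GGAA in either direction stood 1, 2 and 1 times in the RWPE1-ERG+mAKT peaks and 3 and 4 times in the VCaP peaks. The core is common: 74% of all RWPE1-ERG+mAKT peaks, 89.1% of all VCaP peaks on the assembled chromosomes and 95.5% of RefSeq promoters hold it. The longer CGGAAG was in 0 of the 5, and in 3.36% and 9.82% of all peaks of the lists. HOXB4 and HOXC13, the genes lowered by 2-fold from RWPE1-ERG to RWPE1-ERG+mAKT, had no ERG peak in their clusters in that line.

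ERK2, a kinase of the Ras pathway that can be found on chromatin, gave 18 peaks in the clusters in RWPE1-Vector and 5 in RWPE1-ERG, from lists of 41276 and 5721 peaks called with 8.39 and 15 M ChIP reads. That is 34.3 and 9.52 peaks per Mb of cluster, against 13.3 and 1.85 per Mb of genome. HOXA held 11 and 3 of them, HOXB 3 and 0, HOXC 2 and 0, and HOXD 2 and 2. A pair of overlapping peaks, chr7:27207586-27207908 in RWPE1-Vector and chr7:27207900-27208369 in RWPE1-ERG, lay in the intron of the longer HOXA9 transcript and had fold enrichments of 3.08 and 4.86. The highest fold enrichment, 4.92, was at chr7:27210456-27211049 in RWPE1-Vector, over an untranslated part of HOXA10 and an exon of HOXA10-AS. In RWPE1-ERG, peaks lay 512 bases from the HOXA11 start and 769 bases from the HOXD11 start, each over an ATAC peak of all 3 lists, with fold enrichments of 2.75 and 2.93. Of these 23 peaks, 0 had a q-value of 0.01 or below, and 3 of the 18 in RWPE1-Vector, all in HOXB, overlapped an H3K27me3 region of any list, of which 2 overlapped one of RWPE1-Vector itself.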

How the data were processed

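RNA-seq, ChIP-seq and ATAC-seq files were used as deposited. For RNA, the authors selected polyA RNA, aligned reads with TopHat2 and ran Cuffdiff. They deposited 1 FPKM per line for 26255 genes, pooled over 3 libraries, beside their own fold changes, p-values and calls, which were not used. Library depth is not given in the sources used here. For ChIP-seq and ATAC-seq, the authors aligned reads to hg19 with Bowtie2 and called regions with MACS2 (per the file headers, version 2.2.7.1 for H3K27me3 and for the mAKT ATAC list, and 2.1.2 for ERK2 and for ERG in RWPE1-ERG+mAKT). Each deposited list gives a fold enrichment, a ratio (over input for RWPE1 ChIP-seq, over the local background of the same library for ATAC-seq), and the p-value and q-value, each as −log10. ChIP lists hold regions at a lenient p-value, so a q-value limit of 0.01 leaves few. ChIP reads were 8.39 to 26.5 M where headers record them.

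The 39 HOX genes were taken by symbol. Ratios used FPKM without a pseudocount. Overlap meant at least 1 bp. Table starts count from 0 (11726 starts matched an exon start after adding 1, 1285 without), and 1 was added. The reference was GRCh37 with GENCODE release 44 mapped to it, on which 0 regions lay beyond a chromosome end. MANE Select gave gene starts, and RefSeq gave 27 promoter windows for 20 HOX genes. HOX genes with at least 1 FPKM in any line, every ERG peak in a cluster, and other listed genes that passed 2-fold or led their list were named by rule; ERK2 peaks are given as counts with examples chosen after their values were seen. The members and lists were chosen with earlier results of these data known. Code was tested on simulated data. Tools were matplotlib 3.10.9, scipy 1.17.1, pandas 2.3.3 and numpy 2.4.6 under Python 3.11.15. A vector ATAC list, and lists under the VCaP input and VCaP LY294002 labels whose contents do not match them, were not used here. Some genes of the lists are not reported here by name.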

Additional observations from a re-analysis of the deposited data

Results flagged for a closer look

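HOXC13 is singled out because ERG went with opposite directions of its RNA without and with mAKT. Its FPKM ratio was 1.85 for RWPE1-ERG over RWPE1-Vector and 0.604 for RWPE1-ERG+mAKT over RWPE1-mAKT. It was the 1 HOX gene past 1.5-fold in both comparisons in opposite directions, a limit chosen after the values were seen. Each ratio rests on pooled values, and the difference between them was not tested. In the first comparison 9.62% of all genes were higher by 1.5-fold, and in the second 3.7% were lower. The share of all genes that passed in both, in opposite directions, was not counted. Its start was open in all 3 ATAC lists, at 8.2-fold in RWPE1-ERG, 5.71-fold in RWPE1-mAKT and 6.2-fold in RWPE1-ERG+mAKT. An H3K27me3 region lay within 1 kb of the start in RWPE1-ERG (3.01-fold) and RWPE1-ERG S96E (6.44-fold), but not in RWPE1-Vector. Such regions covered 3.46, 23.6 and 42.3% of the HOXC13 locus in the Vector, ERG and S96E lists.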

How the results depend on the processing

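No paired analysis was possible because the RNA values are pooled over replicates and each list has 1 library, so leaving out a library gave no value. Of 167 alternative values, 100 moved little and 67 are given here. No HOX gene count changed from higher to lower, but some orders between lists or lines turned, and the cause was not tested. RWPE1-Vector covered more of HOXA, HOXB and HOXD than RWPE1-ERG did, and less with regions of at least 2-fold enrichment or with equal numbers of regions. The Vector, ERG and S96E lists had 4, 5 and 9 loci covered for at least 50%, but 14, 13 and 14 for at least 10%. RWPE1-ERG S96E thus no longer had more loci than RWPE1-Vector at 10%. RWPE1-ERG had the most ATAC peaks, and RWPE1-ERG+mAKT the most with equal numbers. RWPE1-mAKT had fewer expressed HOX genes than RWPE1-Vector at 1 FPKM, and more at 5 FPKM.

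An FPKM limit of 5 left 6, 9, 8 and 6 expressed HOX genes, in the order of lines used above, against 23, 23, 22 and 22 at 1 FPKM. At 1.5-fold, 2 genes were higher and 2 lower for RWPE1-ERG over RWPE1-Vector, 2 and 1 for RWPE1-mAKT over RWPE1-Vector, 0 and 2 for RWPE1-ERG+mAKT over RWPE1-Vector, 2 and 4 for RWPE1-ERG+mAKT over RWPE1-ERG, 1 and 1 for RWPE1-ERG+mAKT over RWPE1-mAKT, and 3 and 2 for RWPE1-mAKT over RWPE1-ERG. At 0.5 FPKM, 1 gene was higher for RWPE1-ERG over RWPE1-Vector, RWPE1-ERG+mAKT over RWPE1-Vector and RWPE1-ERG+mAKT over RWPE1-ERG, 1 was lower for RWPE1-ERG+mAKT over RWPE1-mAKT and 2 were lower for RWPE1-mAKT over RWPE1-ERG. For RWPE1-ERG+mAKT over RWPE1-ERG, 1 gene was lower at 3-fold, 1 with a pseudocount of 1 and 0 at 5 FPKM. For RWPE1-mAKT over RWPE1-ERG, 0 were higher and 0 lower at 3-fold, at 5 FPKM and with a pseudocount of 1. Scaling each line by its median ratio left every count unchanged.

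For H3K27me3, coverage of 10% was met by 14, 13 and 14 loci in the Vector, ERG and S96E lists. In RWPE1-Vector, 1 locus was covered for 50% by regions of at least 2-fold enrichment, and for 2 of the 39 genes regions covered 50% of the window of 1 kb to either side of the start. With regions of at least 2-fold enrichment the shares were 0.177 and 3.18% of HOXA in RWPE1-Vector and RWPE1-ERG S96E, 20.6, 27.1 and 43.6% of HOXB, 9.87, 22 and 57.8% of HOXC and 3.68, 9.18 and 17.9% of HOXD. With equal numbers of regions they were 0.177, 28.2, 13.2 and 5.33% of HOXA to HOXD in RWPE1-Vector and 60.4% of HOXC in RWPE1-ERG S96E. With 20 kb added to either side they were 3.49, 1.49 and 8.21% of HOXA, 38, 36.6 and 51% of HOXB, 26.7, 28.5 and 60.2% of HOXC and 19.7, 19.3 and 30.6% of HOXD. The limit for a moved share was its binomial interval over bases, which is narrow because bases are not independent. Equal numbers of ATAC peaks left 29 in RWPE1-ERG and 23 in RWPE1-mAKT. A q-value limit of 0.01 left 0 ERG peaks in either list and 0 ERK2 peaks in either list.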
